A study of Mus musculus with 16 samples.

Results

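The 9 imprinted growth genes described here are Mest, Igf2, Dlk1, Peg3, Peg10, Ndn, Grb10, Plagl1 and Igf2r, found by symbol among the 20325 genes of the deposited expression table. They were selected on known parent-of-origin expression and with measured values of these libraries in view, in particular the level of Mest in the cells carrying H3.3 G34W or G34R. Their levels and differences are therefore given as a description, and the numbers of them past a threshold support nothing. All 9 were in the table, and 8 entered the fit, which took genes averaging 10 or more, whereas Peg3 did not.

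Genomic imprinting marks a gene during egg or sperm formation, so that in the offspring the copy from 1 parent is transcribed and the other is kept silent, mostly through DNA methylation that survives fertilisation. Many imprinted genes act on growth: paternally expressed ones such as Igf2 tend to promote it and maternally expressed ones such as Igf2r and Grb10 tend to restrain it. In the mouse several of them form a set with high levels in embryonic mesenchymal tissue that are turned down after birth. The values here are sums over both parental copies, so they do not tell which copy was read.

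The cells were C3H10T1/2, a mouse line with properties of mesenchymal stem cells, grown in medium with 10% serum. All 8 groups were transduced for 2 days with lentivirus carrying a histone transgene and then selected for 4 days with 1.5 µg/ml puromycin, so the controls carried a wild-type histone transgene, the cells kept their own histone genes, and every group is a model of overexpression in 1 line. The transgenes were H3.3 wild type, H3.3 K27R, H3.3 G34W, H3.3 G34R, H3.3 with both G34W and K27R, H3.3 with both G34W and K36R, and H3.1 either as wild type or with G34W, with 2 libraries each. H3.3 is the histone H3 form placed into chromatin outside replication and H3.1 the replication-dependent one. G34W and G34R are glycine 34 changes found in tumours, and K27R and K36R replace the lysines at which PRC2 and the H3 lysine 36 methyltransferases act. By its title the study asked how the glycine 34 changes bear on PRC2, the complex that methylates lysine 27.

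The libraries held 26019500 to 49118700 reads over genes, and 3 reads, taken as the floor of detection, corresponded to values of 2.27 to 3.74. Both H3.3 wild-type libraries agreed within sampling noise over 2405 genes with whole-number reads (chi-square per degree of freedom 0.958) and were averaged and counted as 1 sample. With fractional expected counts included (11931 genes), the same pair gave 1.23 and so exceeded that noise. The pairs of K27R, G34R and both double transgenes were at 1.18 to 1.44 over whole-number reads and at 1.77 to 6.01 with the fractional counts. The pairs of H3.3 G34W and of both H3.1 groups were at 38.7 to 59.2 and 224 to 273. The labels do not say that replicates were separate cultures, so errors and p-values cover the differences between paired libraries alone, and these may be technical. In 3 groups libraries stood apart: across genes, H3.3 G34W replicate 2 was closer to H3.3 G34R replicate 1 (Pearson r = 0.978) than to its own replicate (0.938), H3.1 G34W replicate 1 was closer to H3.1 wild type replicate 1 (0.992) than to its own (0.969), and H3.1 G34W replicate 2 was closer to H3.3 G34W K36R replicate 2 (0.975). Values of each library are therefore given throughout. Of 10 mesenchymal markers, 9 to 10 were above the floor in each library, with sums of 436376 to 876692. Defining markers of muscle, leukocytes, epithelium and endothelium summed to at most 165, 71.0, 305 and 75.5 in any library, and the 8 adipocyte markers, in contrast, ranged from 1247 to 17058.

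Promoter sequence was matched in RefSeq (GRCm38.p6) for 8 of the 9 genes, not for Peg10. It gave 14 windows of 250 bases before an annotated start, and 1 each is shown for Mest, Igf2 and Dlk1, whose values moved most between the groups, and for Grb10, which has the window richest in CpG. In GENCODE M21, on the same build, none of the 4 windows overlapped an exon; those of Mest, Igf2 and Grb10 lay in introns of their own genes, before a start inside the gene, and that of Dlk1 lay between genes. They are written 5′ to 3′ on the gene's strand in lower case, with each CpG, the dinucleotide that carries the methylation of imprints, in capitals.
Mest, chr6:30737800-30738049, plus strand: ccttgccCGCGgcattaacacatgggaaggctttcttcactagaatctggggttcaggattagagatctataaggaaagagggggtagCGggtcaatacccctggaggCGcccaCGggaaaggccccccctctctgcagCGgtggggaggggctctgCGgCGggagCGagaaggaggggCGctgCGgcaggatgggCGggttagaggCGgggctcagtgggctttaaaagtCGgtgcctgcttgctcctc
Igf2, chr7:142657497-142657746, minus strand: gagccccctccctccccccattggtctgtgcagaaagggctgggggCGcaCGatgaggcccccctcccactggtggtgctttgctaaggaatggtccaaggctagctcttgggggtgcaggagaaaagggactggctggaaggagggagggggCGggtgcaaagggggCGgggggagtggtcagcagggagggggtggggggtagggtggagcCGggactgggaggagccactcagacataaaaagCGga
Dlk1, chr12:109452573-109452822, plus strand: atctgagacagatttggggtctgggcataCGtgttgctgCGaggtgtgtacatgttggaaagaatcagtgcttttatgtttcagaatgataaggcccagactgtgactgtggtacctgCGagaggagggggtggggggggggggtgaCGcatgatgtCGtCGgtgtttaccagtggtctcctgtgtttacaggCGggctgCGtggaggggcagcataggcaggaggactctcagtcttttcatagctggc
Grb10, chr11:12037421-12037670, minus strand: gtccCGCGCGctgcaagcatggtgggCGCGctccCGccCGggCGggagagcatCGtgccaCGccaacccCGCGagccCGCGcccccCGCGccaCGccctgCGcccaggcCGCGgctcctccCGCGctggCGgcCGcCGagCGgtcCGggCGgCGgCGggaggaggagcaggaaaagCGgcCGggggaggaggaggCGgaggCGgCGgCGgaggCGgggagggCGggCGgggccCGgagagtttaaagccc

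The windows shown held 14 CpG for Mest, 6 for Igf2, 8 for Dlk1 and 40 for Grb10, against a median of 6 over 32851 promoter windows of the same length. Starts of 1 gene differed: the other Mest windows held 7 and 14, the other Igf2 windows 1, 10 and 22, and the other Grb10 window 8. The Igf2r window, chr17:12769707-12769956 on the minus strand, held 27. Over all windows 37.8% had at least 10 CpG, and 7 of the 14 windows of the 8 members did. The letters TGCCGC, the motif that the imprint-protecting zinc finger protein ZFP57 binds when methylated, were searched on both strands. They occurred at positions 9 and 184 of the Mest window printed above, counted from its 5′ end. In all, 3 of the 14 member windows held the motif, 2 of them overlapping windows of Mest and 1 of Plagl1, against 8.7% of all windows. Igf2, Peg3 and Ndn lie on chromosome 7 and Mest on chromosome 6, and the other members are spread over chromosomes 10, 11, 12 and 17 where a window was matched. These windows describe sequence only, because no binding or methylation was measured in these libraries.

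Mest, also called Peg1, is paternally expressed, encodes a protein of the alpha/beta hydrolase fold, and is known for a rise in expanding fat tissue. It was at 92.0 and 89.1 in the H3.3 wild-type libraries, at 4590.0 and 5234 in H3.3 G34W, and at 4214 and 3995 in H3.3 G34R. The double transgenes stood below G34W alone, with 2365 and 2393 in G34W K36R and 1144 and 1199.7 in G34W K27R. K27R alone gave 201 and 246, H3.1 wild type 125.1 in both libraries, and H3.1 G34W 226 and 731. Thus all 8 libraries of H3.3 changed at residue 34, from 1144 to 5234, lay above all 8 others, from 89.1 to 731. No other member separated these libraries in this way, and 79 of the 12670 genes tested (0.624%) did so upwards.

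In order of group means Mest ran from G34W, G34R, G34W K36R and G34W K27R through H3.1 G34W and K27R to H3.1 and H3.3 wild type, and only the neighbours H3.1 G34W and K27R overlapped. Its fitted log2 fold change was 5.74 ± 0.49 (SE) for G34W against H3.3 wild type and 5.49 ± 0.49 for G34R, and 5.84 and 5.65 for G34W without replicate 1 and replicate 2 of that group. In H3.1 the same change gave 1.69 ± 0.40, which was not called. Both G34W libraries were above both of wild type, and replicate 2 was 3.24 times replicate 1. The value was 2.54 without replicate 1 and 0.85 without replicate 2. Of the coatomer gene Copg2, which overlaps the exons of Mest on the opposite strand, the values were 2753 and 2535 in H3.3 wild type and 2958 and 2564 in G34W. The strand used in counting is not given in the sources used here, so reads from the shared stretch cannot be told apart.

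**Figure D1:**
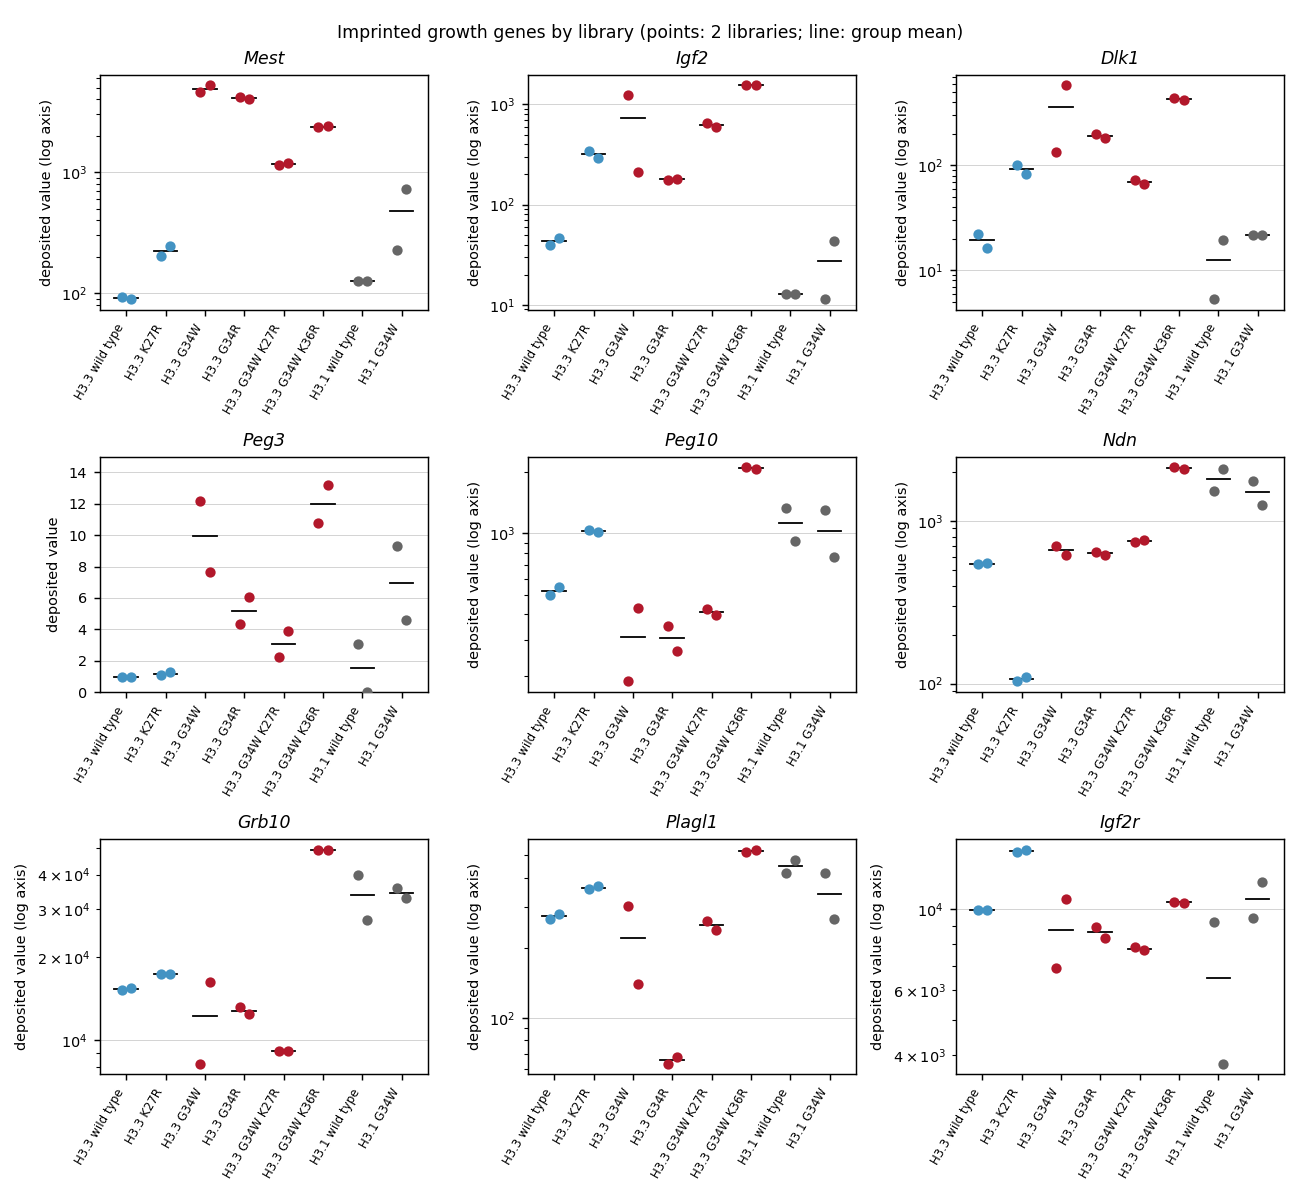
Deposited values of the 9 imprinted growth genes in the 16 libraries, 1 panel per gene, with 2 points per group, a line at the group mean and a log axis except for Peg3. Red marks H3.3 groups changed at residue 34, blue the other H3.3 groups and grey H3.1; in the Mest panel the 8 red points, at 1144 to 5234, lie above the other 8.

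Igf2, the paternally expressed fetal growth factor that signals through the IGF1 and insulin receptors, was at 39.7 and 46.5 in H3.3 wild type. Its highest values, 1552 and 1556, were in G34W K36R. The libraries of G34W itself disagreed, at 1249.7 in replicate 1 and 212 in replicate 2, a 5.89-fold gap. G34W K27R gave 661 and 600.4, K27R alone 341 and 294, and G34R 176.8 and 181. All 10 libraries of the H3.3 groups with a changed residue were above H3.3 wild type, whereas H3.1 wild type, at 12.9 and 12.7, was below it. How many of all genes separated in this way was not counted, so nothing is read from the separation. H3.1 G34W was at 11.4 and 43.1, a range that overlapped both wild-type groups.

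Igf2 differed from Mest in that K27R alone stood above G34R. Its fitted log2 fold changes against H3.3 wild type were 3.55 ± 0.88 for G34W, 2.03 ± 0.88 for G34R and 2.85 ± 0.88 for K27R. None passed the threshold of an adjusted p of 0.05 in limma. The errors are equal because the fit took a common variance per gene from all groups. They carry the gaps within the pairs of G34W and H3.1 G34W. They do not describe the pairs of G34R and K27R, whose libraries were closer. Without replicate 1 of G34W the value for that group was 2.27, and without replicate 2 it was 4.83. The exons of Igf2 overlap an antisense transcript, Igf2os, and a same-strand gene model that was not analysed here, which counting could mix with Igf2.

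Dlk1, a paternally expressed transmembrane protein of preadipocytes that holds back fat differentiation, was at 22.3 and 16.5 in H3.3 wild type. G34W gave 135 in replicate 1 and 582 in replicate 2, the reverse order of Igf2. G34W K36R was at 441 and 425, G34R at 198 and 182, K27R at 99.9 and 83.5, and G34W K27R at 73.2 and 67.1. Every H3.3 group with a changed residue was again above H3.3 wild type, a separation that was not counted over all genes. In H3.1 wild type the values were 5.31 and 19.5, and in H3.1 G34W 21.8 and 21.6, so 3 of the 4 H3.1 libraries lay within the H3.3 wild-type range and 1 below it.

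The log2 fold change of Dlk1 against H3.3 wild type was 3.79 ± 0.78 for G34W, 3.23 ± 0.78 for G34R and 2.18 ± 0.78 for K27R. This error too is common to all groups. It carries the gaps within the pairs of G34W and H3.1 wild type, and the libraries of G34R and of K27R were closer. Leaving out replicate 1 of G34W gave 4.84 for that group and leaving out replicate 2 gave 2.74. Dlk1 was lower in G34W K27R than in G34W by a log2 of -1.99 ± 0.64, which was -0.94 without replicate 2 of G34W and -3.03 without replicate 1, and the call was lost in 18 of 27 alternative analyses.

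Markers of fat cells also differed between the libraries of G34W. Adipoq, the fat hormone adiponectin, was at 4082 in G34W replicate 1 and at 7.65 in replicate 2, and Plin1, which coats lipid droplets, was at 825 and 0. All 8 adipocyte markers were in the table, and 7 were above the floor in G34W replicate 1 and 4 in replicate 2. Their sums were 17058 and 2332 in G34W, 9949 and 9864 in G34W K27R, and 1247 to 3375 in the 12 libraries of the other groups. Thus Igf2 was higher and Dlk1 lower in the library of G34W with the larger sum. Dlk1 was at 73.2 and 67.1 in G34W K27R, the lowest of the H3.3 groups with a changed residue. It was at 22.3 and 16.5 in H3.3 wild type, at sums of 2265 and 2210. The sums were not made up of the same markers: Plin1 was at 453 and 501 in G34W K27R but at 2.90 and 3.87 in H3.3 wild type. In H3.1 it was at 5.31 to 21.8, at sums of 1490 to 2983. K27R, with the smallest sums of 1285 and 1247, had 99.9 and 83.5. G34W K36R had high Igf2 at sums of 1981 and 2178. Mest, at 4590.0 and 5234, moved little between the G34W libraries. The 6 chondrocyte markers also differed between the G34W libraries, with sums of 15224 in replicate 1 and 86679.5 in replicate 2, beside 60133 and 60421 in H3.3 wild type and 10737 to 42474 in the other groups. The 3 neural markers summed to 528 and 1548 in G34W and to 110.3 to 1945 elsewhere, with 1 of them below the floor in every library, and the 5 osteoblast markers to 1401 to 2555 in all libraries. The part of other cell types in the values was not tested, and in bulk RNA a change in the number of cells of a type and in RNA per cell cannot be told apart.

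**Figure D2:**
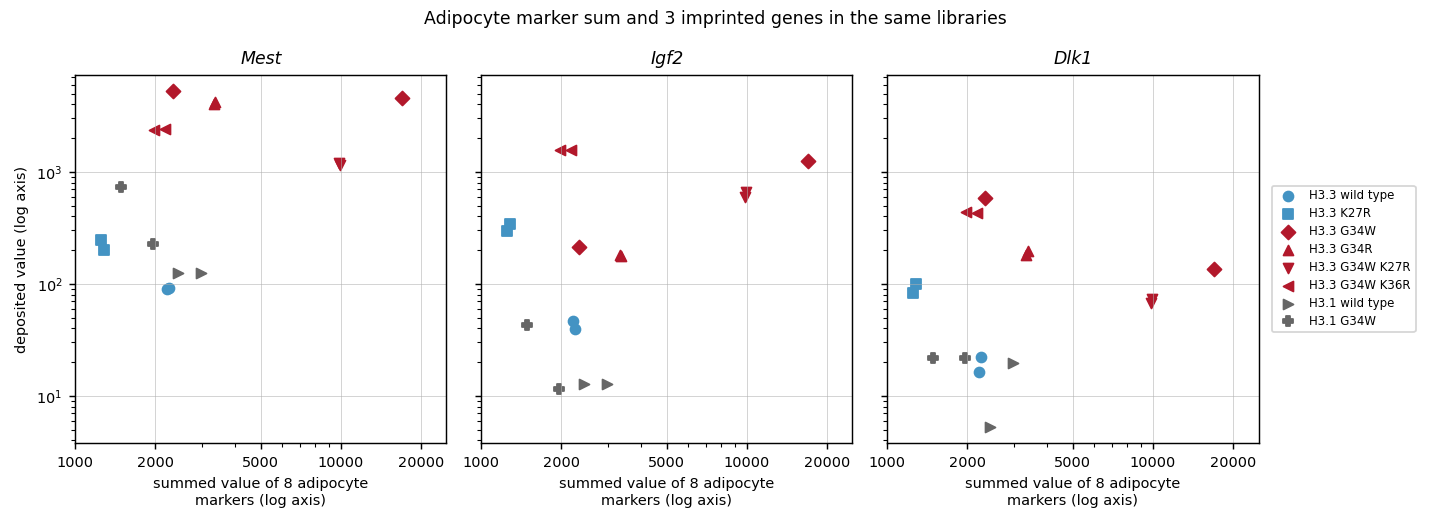
Deposited values of Mest, Igf2 and Dlk1 (log axis) against the summed value of 8 adipocyte markers in the same library (log axis), 2 points per group, with symbols for groups and the colours red for H3.3 changed at residue 34, blue for other H3.3 and grey for H3.1. The G34W libraries, at sums of 17058 and 2332, are close in Mest but far apart in Igf2 and Dlk1.

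Igf2r, the maternally expressed receptor that takes IGF2 to the lysosome for degradation, varied least of the tested members. Its highest and lowest libraries differed 3.81-fold. It was at 9949 and 9934 in H3.3 wild type, 14255 and 14476 in K27R, 6921 and 10611 in G34W, and 8949.9 and 8341 in G34R. G34W K36R gave 10466 and 10353 and G34W K27R 7882 and 7711. K27R was therefore the highest group, without overlap with any other, and the share of all genes with such a separation was not counted. The lowest library was replicate 2 of H3.1 wild type at 3800, against 9214 in replicate 1, and H3.1 G34W gave 9459.7 and 11794. Its fitted log2 fold changes against H3.3 wild type were -0.21 ± 0.42 for G34W, -0.20 ± 0.42 for G34R and 0.53 ± 0.42 for K27R, and the first was 0.09 without replicate 1 of G34W. The antisense transcript Airn lies in Igf2r without sharing exons with it and was not analysed here.

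Grb10, an adaptor that binds the insulin and IGF1 receptors and damps their signal, is expressed from the maternal copy in most tissues. It was at 15153 and 15409 in H3.3 wild type and at 49248 and 49327 in G34W K36R. Both H3.1 groups were also high, at 39857 and 27434 in wild type and 35903 and 32969 in G34W. The lowest group mean was that of G34W K27R, with 9133 and 9118. G34W again had discordant libraries, 8215 and 16287, and its difference from H3.3 wild type was a log2 of -0.40 ± 0.34, which was -0.90 and called without replicate 2 and 0.09 without replicate 1. G34R, at 13156 and 12412, lay below H3.3 wild type and K27R, at 17459 and 17456, above it.

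Ndn, which encodes necdin, a paternally expressed protein that restrains cell division and fat differentiation, set K27R apart from all other groups. It was at 103 and 109.7 in K27R against 543 and 550 in H3.3 wild type, a fitted log2 fold change of -2.35 ± 0.23. With G34W on the same histone the values were 741 and 766, above those of G34W alone at 700 and 616. G34R gave 648 and 619.7. The highest values were 2133 and 2078 in G34W K36R and 1524 and 2076 in H3.1 wild type, with 1751 and 1257 in H3.1 G34W. Apart from K27R, every group was above the H3.3 wild-type libraries. How many of all genes showed either separation was not counted.

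Peg10, a paternally expressed gene derived from a retrotransposon and needed for the placenta, was at 499 and 548 in H3.3 wild type. K27R gave 1041 and 1011, in contrast to its Ndn values, and G34W K36R gave 2109 and 2061. H3.1 wild type was at 1339 and 917 and H3.1 G34W at 1296 and 762. The groups below H3.3 wild type were G34W at 188 and 432, G34R at 350.4 and 263 and G34W K27R at 424 and 396, and the range of G34W held all 4 libraries of the other two.

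Plagl1, a paternally expressed zinc finger transcription factor also called Zac1, is known to bind and activate other imprinted genes. It was lowest in G34R, at 63.6 and 67.7, against 266 and 280.4 in H3.3 wild type, a log2 fold change of -2.04 ± 0.40. The call of this difference was lost in 10 of 27 alternatives, among them the omission of either library of G34R. G34W gave 301 and 140.0. G34W K36R was highest at 518 and 529, followed by H3.1 wild type at 418 and 478. K27R gave 357 and 369.5, G34W K27R 261 and 239, and H3.1 G34W 419 and 266.

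Peg3, a paternally expressed zinc finger protein, stood near the floor of detection and was not fitted. It had 1 read in each library of H3.3 wild type and K27R, and the highest values were 12.2 and 7.65 in G34W and 10.8 and 13.2 in G34W K36R. In H3.1 G34W it was at 9.33 and 4.62, in H3.1 wild type at 3.03 and 0, in G34R at 4.31 and 6.04 and in G34W K27R at 2.22 and 3.89. No fold is given for it.

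**Figure D3:**
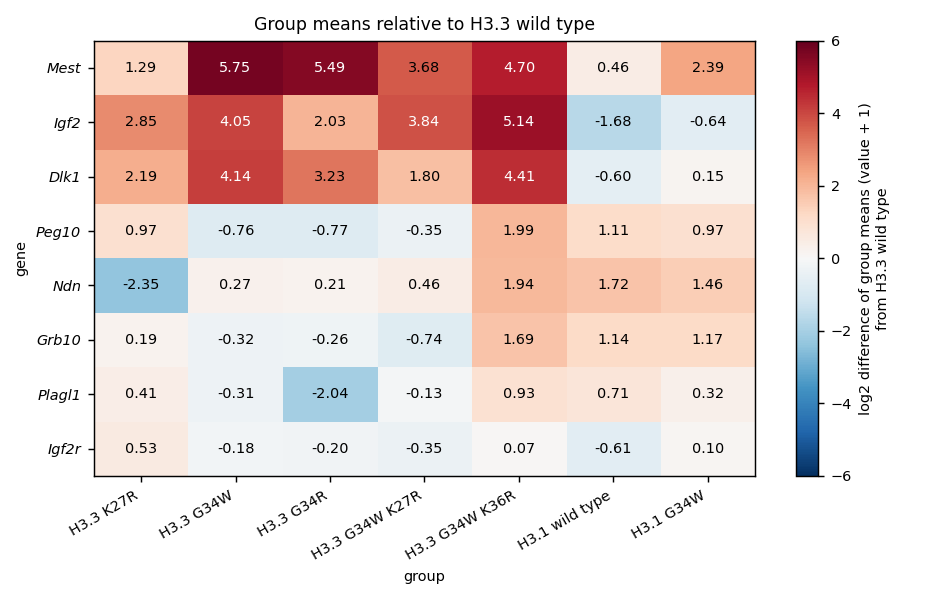
Heat map of the log2 difference between each group's mean and that of H3.3 wild type (value + 1) for the 8 members that were fitted, with the value in each cell. The first 3 rows, Mest, Igf2 and Dlk1, are positive in all 5 H3.3 columns, and the G34W K36R column is positive in all 8 rows, from 0.07 for Igf2r to 5.14 for Igf2.

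Beside the whole table, the calls of the fit read as follows. In G34W against H3.3 wild type 1.18% of the 12670 genes were called, and of the 8 members fitted only Mest was, as higher. In G34R against H3.3 wild type 2.72% of genes were called, with Mest higher and Plagl1 lower among the members. In K27R against H3.3 wild type 2.75% were called, with Ndn lower. For G34W in H3.1 against its own wild type limma called 0% of genes and no member, and 2015 genes were under an unadjusted p of 0.05. Leaving out replicate 1 of either H3.1 group left that group with 1 sample. Many of all genes were then called, so member calls of those fits are not read.

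H3.1 against H3.3 wild type called 33.4% of genes and 2 members, Ndn (log2 fold change 1.70 ± 0.23) and Grb10 (1.11 ± 0.34), both higher, and without H3.1 wild type replicate 1 the call of Grb10 was lost. G34W K27R against G34W called 21.6% of genes, with Mest (-2.06 ± 0.40) and Dlk1 lower. G34W K36R against G34W called 30.6% of genes, with Peg10 (2.87 ± 0.37), Grb10 (2.09 ± 0.28), Ndn (1.68 ± 0.19) and Plagl1 (1.34 ± 0.32) higher and none lower. G34W K27R against K27R called 26.2% of genes, with Ndn (2.81 ± 0.19) and Mest (2.39 ± 0.40) higher and Peg10 (-1.32 ± 0.37) and Grb10 (-0.94 ± 0.28) lower. Comparisons that share a control group also share its error. The calls of Plagl1 against G34W and of Peg10 and Grb10 against K27R were each lost without either library of the double transgene, and the value of Plagl1 was 0.79 without replicate 2 of G34W. With each close pair of libraries counted as 1 sample, only Ndn in H3.1 against H3.3 wild type stayed called among members. Most calls over all genes were lost there as well. Nothing is read from these counts, since the members were picked with values of the same libraries known.

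**Figure D4:**
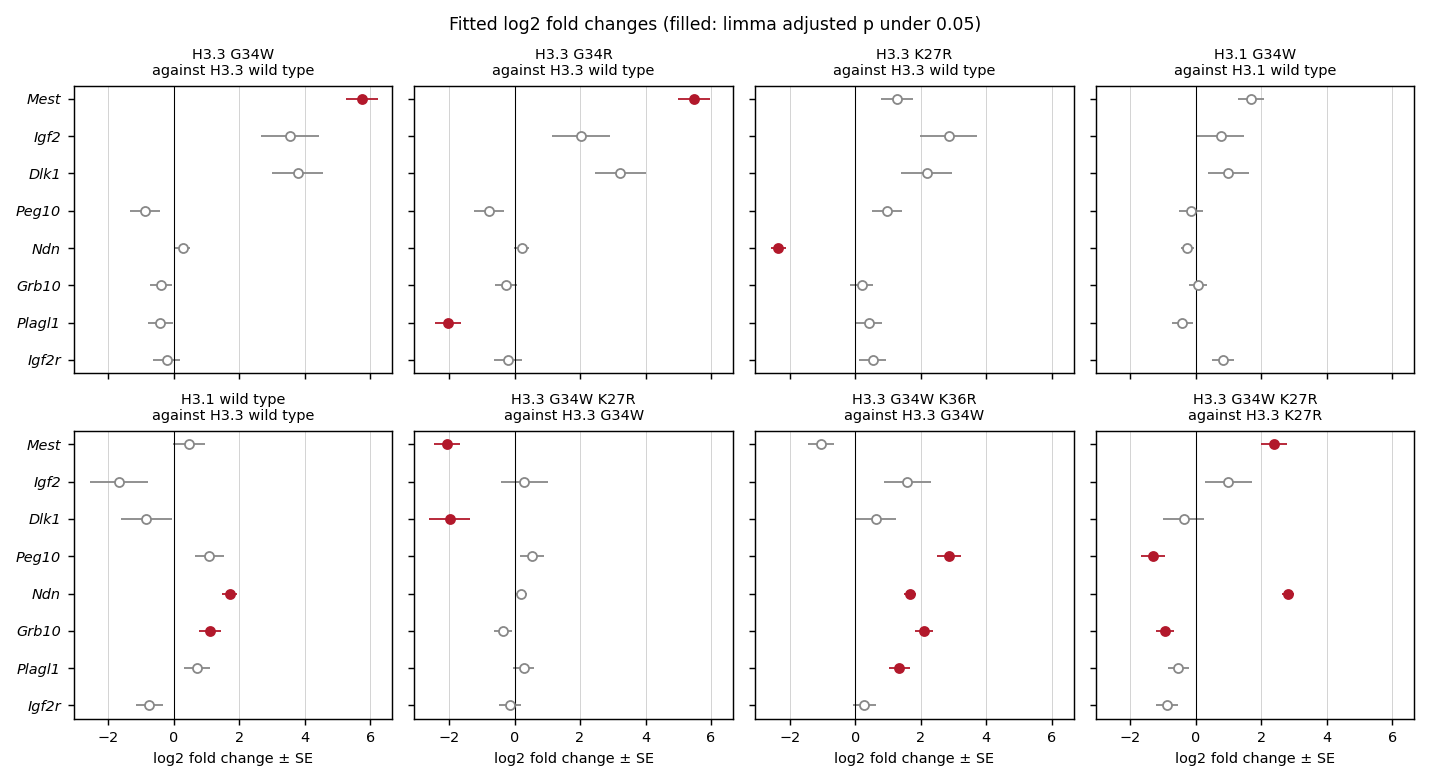
Fitted log2 fold changes with standard errors (horizontal bars) of the 8 members in 8 comparisons, 1 panel each, with filled red points for genes past the limma threshold and open points for the others. Mest stands at 5.74 and 5.49 in the first 2 panels, and in G34W K36R against G34W 4 members are filled, all to the right of 0.

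The design also allowed a test of whether the effect of G34W depended on lysine 27 or on the histone type, as an interaction term on the log2 scale. The interaction of G34W with K27R was called in 7.95% of genes and in 3 members. For Mest the effect of G34W was 5.74 without K27R and 2.39 with it, a difference of -3.35 ± 0.63. Dlk1 went from 3.79 to -0.38, a difference of -4.17 ± 1.01, which was -5.22 without replicate 1 of G34W and -3.12 without replicate 2, and whose call was lost in 11 of 27 alternatives. Ndn moved the other way, from 0.26 to 2.81, a difference of 2.55 ± 0.30. The interaction of G34W with histone type was called in 0.197% of genes and in 1 member, Mest, whose effect of G34W was 5.74 in H3.3 and 1.69 in H3.1, a difference of 4.05 ± 0.63. It was 3.20 without H3.1 G34W replicate 1 and 4.90 without replicate 2, and the call was lost in 14 of 27 alternatives, among them the omission of H3.1 wild type replicate 2.

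Genes whose group means followed those of Mest were sought by Pearson correlation of log2 values over the 8 groups among 11923 other genes, as a description with no test. The closest were Gdpd2 (r = 0.987), Arsg (0.987), Hvcn1 (0.965), Slc26a1 (0.956) and Adamts9 (0.941). Gdpd2, a glycerophosphodiester phosphodiesterase, had group means of 611 in G34W, 494 in G34W K36R, 419.6 in G34R and 195 in G34W K27R, against 35.3 in H3.3 and 34.4 in H3.1 wild type. Adamts9, an extracellular protease, had means of 1189 in G34W and 107 in H3.3 wild type. The genes closest to Igf2 were Egfr (r = 0.955), Mmaa (0.938), Cd200r2 (0.936), Tcn2 (0.930) and Dnm3 (0.927). Egfr, the EGF receptor, was at 1657 in G34W K36R, 976 in H3.3 wild type and 658 in H3.1 wild type. The points share libraries, and the groups were fixed at 8.

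Other imprinted genes gave no calls where a single H3.3 change was compared with wild type. So few of all genes were called there that nothing is read from this absence. Of 19 further paternally expressed genes 15 were in the table and 9 were fitted, and none was called in G34W, G34R or K27R against H3.3 wild type. Their median log2 fold change in G34W was 0.09, beside 0.002 over all genes fitted, and in G34R it was 0.14 beside -0.009. Of 20 further maternally expressed genes 16 were in the table and 7 were fitted, with no calls in the same 3 comparisons, in which 1.18% to 2.75% of all genes were called, and medians of 0.18 in G34W and 0.12 in G34R. Gnas, the stimulatory G protein subunit, lay between 31004 and 42736 in all 16 libraries. Magel2, the neighbour of Ndn, and Cdkn1c, a cell cycle inhibitor, were listed at 0 in every library, and H19 and Meg3, the noncoding partners of Igf2 and Dlk1, were not analysed here.

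In the comparisons with a second lysine change or another histone type some genes of these lists were called, as were many of all genes. Whether the listed genes, Dcn among them, are read from 1 parental copy in these cells was not measured. In G34W K36R against G34W, where 30.6% of all genes were called, 1 of 9 paternal genes was lower, Mcts2 (-0.75 ± 0.18, limma adjusted p = 0.0112, and not called without either library of G34W K36R), and of the 7 maternal genes 4 were lower and 1 higher. Dcn, the collagen-binding proteoglycan decorin, fell by 4.96 ± 0.40 (adjusted p = 3.0e-05), from 2701 and 882 to 47.0 and 50.2. Slc22a2, an organic cation transporter beside Igf2r on its chromosome, fell by 4.55 ± 0.48 (adjusted p = 1.6e-04), Slc22a18 by 2.02 ± 0.32 and Osbpl5 by 0.72 ± 0.13. Ube3a, a ubiquitin ligase that is imprinted in neurons, rose by 1.09 ± 0.16 (adjusted p = 0.00109). The list's median was -0.72 beside -0.026 over all genes, while Peg10, Ndn, Grb10 and Plagl1 were higher in the same comparison.

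Dcn went the other way in G34W K27R, at 22704 and 23569, a log2 fold change of 3.90 ± 0.40 against G34W (limma adjusted p = 9.1e-05), whereas Slc22a2 fell by 3.02 ± 0.48 (adjusted p = 0.00152). The interaction of G34W with K27R, called in 7.95% of all genes, was 2.71 for Dcn, a call lost in 11 of 27 alternatives. Against K27R alone, where the limma fit called 26.2% of all genes, Dcn rose by 2.89 ± 0.40. Slc22a18 fell there from 288 and 275 to 142 and 139 (limma adjusted p = 0.0416). Slc22a2 was lower there too, at a log2 fold change of -1.84, a call lost in 4 of 27 alternatives. The paternal genes Nnat (1.52 ± 0.47, adjusted p = 0.0384) and Zrsr1 (1.06 ± 0.25, adjusted p = 0.0125) rose there, with a list median of 0.56 beside 0.021. Nnat was low throughout, at 5.86 to 28.0, and its call and those of Zrsr1 and Slc22a18 were lost without either library of G34W K27R. In H3.1 against H3.3 wild type, where 33.4% of all genes were called, Peg12 rose by 0.99 ± 0.34 (adjusted p = 0.0457) and Ube3a by 1.17 ± 0.20, the former call being lost without either H3.1 wild-type library. Dcn, Slc22a2, Slc22a18 and Osbpl5 were lower there, Dcn at -6.86 ± 0.49 (adjusted p = 1.9e-05), from 1403 and 1326 to 9.86 and 11.7.

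The other parts of the IGF pathway were represented by 8 receptors, ligands, adaptors and mRNA-binding proteins, all of them fitted. Igf2bp2, which binds Igf2 mRNA among others, was the only gene of the 8 called in each of the single-change comparisons in H3.3. It fell from 1578 and 1690.2 in H3.3 wild type to 625 and 715 in G34W (-1.29 ± 0.17, limma adjusted p = 0.00655) and to 884 and 850.5 in G34R (-0.91 ± 0.17, adjusted p = 0.0189, and not called without either library of G34R). In K27R it rose to 3817 and 3769 (1.21 ± 0.17, adjusted p = 0.00428). It was thus low in the 2 single glycine 34 groups in which Mest was highest and high in both double transgenes, at 3500.3 and 3411 in G34W K27R and 3512 and 3291 in G34W K36R. Its interaction of G34W with K27R was 1.15 ± 0.21 (adjusted p = 0.00918), and that with histone type, -1.26 ± 0.21, was not called (adjusted p = 0.0557). The medians of the list were -0.23 in G34W, -0.65 in G34R and 0.00 in K27R against H3.3 wild type.

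Igf1, the postnatal ligand of the same receptor as Igf2, was lower in G34W K36R than in any other H3.3 group, while Igf2 was highest there. Igf1 fell there to 149 and 135 from 11137 and 4154 in G34W (-5.58 ± 0.45, limma adjusted p = 2.9e-05). In G34W K27R it fell to 1449.6 and 1519 (-2.20 ± 0.45, limma adjusted p = 0.0062). Igf2 differed between G34W K36R and G34W by 1.59 ± 0.72, which was not called. Elsewhere the genes did not run opposite: both were higher in replicate 1 of G34W than in replicate 2, and both were lower in H3.1 than in H3.3 wild type. In G34W K36R against G34W, Igf2bp3 (3.27 ± 0.38), Igf2bp2 (2.34 ± 0.14), Igf1r (1.03 ± 0.30) and Insr (0.77 ± 0.24) were higher and the adaptor gene Irs1 (-1.01 ± 0.32) lower, so 4 of 8 rose and 2 fell, where 30.6% of all genes were called, with a median of 0.90 beside -0.026. The calls of Igf1r, Insr and Irs1 were lost without either library of G34W K36R, and Igf1r was at 0.49 and not called without replicate 1 of G34W, and at 1.58 without replicate 2. Igf2bp3 was at 487 and 520.1 in G34W K36R and at 46.9 and 55.8 in G34W. In H3.1 against H3.3 wild type Igf2bp2 (1.40 ± 0.17) and Igf2bp3 (1.55 ± 0.47) were higher and Igf1 (-7.79 ± 0.55) and Irs1 (-1.78 ± 0.39) lower, and Igf2bp3 was not called without H3.1 wild type replicate 1. Irs1 was also higher in G34W K27R than in K27R, by 1.31 ± 0.32 (limma adjusted p = 0.0130), a call lost without any 1 of these 4 libraries.

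Of 10 genes that maintain DNA methylation or imprints, none was called in G34W, G34R or K27R against H3.3 wild type, nor in either interaction, beside the same low shares of all genes called in those 3 comparisons (1.18%, 2.72% and 2.75%), and the medians were 0.15, 0.07 and -0.04. Uncalled differences went both ways. Tet1 was at 128 and 153 in H3.3 wild type, 489 and 305 in G34W and 448 and 410 in G34R. Zfp57, whose protein binds the motif searched above, was at 466 and 505 in H3.3 wild type, 268 and 345 in G34W and 273 and 288 in G34R. Zfp57 rose in G34W K36R against G34W by 0.91 ± 0.16 (limma adjusted p = 0.00256). It fell in G34W K27R against K27R by 0.60 ± 0.16 (limma adjusted p = 0.0204), a call lost without any 1 of the 4 libraries compared. The de novo methyltransferase genes Dnmt3a (-0.81 ± 0.24) and Dnmt3b (-0.70 ± 0.23) and the demethylation enzyme gene Tet1 (-1.88 ± 0.51) were lower in G34W K36R than in G34W, calls lost without either library of G34W K36R. In H3.1 against H3.3 wild type Dnmt3a (-1.45 ± 0.29) and Tet1 (-3.49 ± 0.63) were lower. Uhrf1, which brings the maintenance methyltransferase to replicated DNA and follows cell division, was lower in G34W K27R, at 1073 and 1017, than in K27R, at 7771 and 7780.3 (-2.90 ± 0.52, adjusted p = 0.0030), and also than in G34W (-2.17 ± 0.52, not called without either library of G34W K27R, and -1.44 and not called without replicate 2 of G34W).

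The 8 PRC2 genes held no limma call in G34W, G34R or K27R against H3.3 wild type, where 1.18%, 2.72% and 2.75% of all genes were called, so nothing is read from their absence. Their medians were -0.31, -0.24 and -0.04. Ezh2, the catalytic subunit, was at 902 and 822 in G34W K27R and was lower there than in G34W (-0.91 ± 0.24, limma adjusted p = 0.0216, not called without either library of G34W K27R, and -0.60 and not called without replicate 2 of G34W) and in K27R (-1.28 ± 0.24, adjusted p = 0.00367). Suz12, a core subunit, was higher in G34W K36R than in G34W (1.21 ± 0.20, adjusted p = 0.00195). In H3.1 against H3.3 wild type Ezh2 (0.87 ± 0.29) and Suz12 (1.51 ± 0.25) were higher and Ezh1 (-2.21 ± 0.42) lower, with the call of Ezh2 lost without either H3.1 wild-type library.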

How the data were processed

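RNA from 16 libraries of C3H10T1/2 cells was sequenced after mRNA enrichment, per the labels' protocols. The authors deposited 1 table of 20325 genes whose signal values are expected counts from RSEM 1.2.4 on mm9, per the submitters' processing notes, multiplied by 1 constant per library, a median normalisation per the name of the deposited table. The aligner, the annotation and the strand setting are not given in the sources used here. Division by the smallest step gave whole reads within 0.01 for 41.5% to 47.6% of the values per library, so no count model was used.

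Genes with a mean of at least 10 were tested (12670) on log2(value + 1), so fold changes of low genes are understated. limma 3.58.1 in R 4.3.3 fitted all 8 groups together, with the H3.3 wild-type libraries averaged and a trended, robust variance (7 residual degrees of freedom), and Benjamini-Hochberg adjustment over all genes tested, with a threshold of 0.05. The fit was checked on data made with known answers, for G34W against H3.3 wild type alone and with the same spread in every group. That check therefore does not cover the unequal spreads of the groups here. The variance of a gene was common to all groups, so its standard errors are not specific to the groups compared. The members, the lists and the tests were chosen with earlier results of these data known. Named genes are the 9 members in every group, up to 4 called genes of each further list per comparison by size, and the 5 genes most correlated with Mest and with Igf2. Gnas, Magel2, Cdkn1c, Copg2, Adipoq, Plin1 and called genes beyond 4 of a list were named after their values were seen. Replicate numbers did not pair libraries: differences between replicates correlated at -0.265 to 0.0598 in the 28 combinations of groups. A second deposited table of 180 genes held 1 of the members and was not used for tests. Promoters came from RefSeq (GRCm38.p6) and no coordinates were converted.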

Additional observations from a re-analysis of the deposited data

Results flagged for a closer look

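Differences between effects of G34W among the members passed the test of the interaction itself, and all are descriptions here because the members were chosen from these data. The effect of G34W differed with and without K27R for Dlk1 (-4.17 on the log2 scale), Mest (-3.35) and Ndn (2.55). The effect of G34W on Mest differed between H3.3 and H3.1 by 4.05, a call lost in 14 of 27 alternatives. Of the calls with K27R, that of Dlk1 was lost in 11 and those of Mest and Ndn in 1 each.

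For Dlk1 the G34W libraries stood at 135 and 582, and the difference was -5.22 without the first and -3.12 without the second. Adipocyte markers summed to 17058 and 2332 in the same libraries. Their part in the values was not tested. Ndn was low in K27R alone, at 103 and 109.7, and the H3.1 G34W libraries that enter the histone-type comparison of Mest were at 226 and 731.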

How the results depend on the processing

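In 27 alternatives no called difference of a member or of a further list gene changed sign, and of the uncalled values given those of Igf2r and Grb10 in G34W against H3.3 wild type did, both without replicate 1 of G34W (Igf2r 0.09, and -0.52 without replicate 2; Grb10 0.09, and -0.90 without replicate 2). Of 52 called values of further list genes, 41 lost their call with each close pair of libraries counted as 1 sample, 29 in at least 1 other alternative and 20 without 1 library. The alternative with close pairs as 1 sample has fewer samples, and its spread comes from H3.3 G34W and both H3.1 groups. Upper-quartile rescaling moved the median of all genes by -0.15 in H3.1 against H3.3 wild type, where 1538 genes were then higher and 2581 lower, beside 2070 and 2159. Quantile normalisation gave 290 higher and 245 lower in G34R against H3.3 wild type, beside 222 and 122, and 562 and 664 in the interaction with K27R, beside 345 and 662. In that with histone type, upper-quartile rescaling gave 8 and 10 beside 14 and 11.

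The number of members called changed as follows. With close pairs as 1 sample it fell in every comparison that had a member call, where most calls over all genes were lost as well. In G34W against H3.3 wild type (1 called) it was 2 with a pseudocount of 5 or quantile normalisation, 3 with the wild-type libraries counted separately, 0 with the compared groups alone, and 1 to 5 leaving out 1 library. In G34R against H3.3 wild type (2 called) it was 1 with no filter and 1 to 3 leaving out 1 library. With the compared groups alone it was 8, where 60.7% of all genes were called. In K27R against H3.3 wild type (1 called) it was 3 with the wild-type libraries counted separately and 1 to 3 leaving out 1 library. The compared groups alone gave 8, where 55.4% of all genes were called. For G34W within H3.1 (0 called) it was 0 to 1 leaving out 1 library. In H3.1 against H3.3 wild type (2 called) it was 1 with no filter, quantile normalisation or the compared groups alone, and 2 to 5 leaving out 1 library. In G34W K27R against G34W (2 called) it was 1 with a pseudocount of 0.5, no filter, a minimum mean of 50, quantile normalisation, a variance without trend and robustness, or the compared groups alone, and 1 to 4 leaving out 1 library. In G34W K36R against G34W (4 called) it was 3 to 5 leaving out 1 library. In G34W K27R against K27R (4 called) it was 2 with no filter and 2 to 5 leaving out 1 library. The compared groups alone gave 7, where 76.3% of all genes were called. For the interaction of G34W with K27R (3 called) it was 2 to 4 leaving out 1 library. For that with histone type (1 called) it was 0 with no filter, upper-quartile rescaling or the compared groups alone, and 0 to 2 leaving out 1 library.

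The alternative with a replicate block also counted the H3.3 wild-type libraries separately. The number of members called was then 3 in G34W and 2 in K27R against H3.3 wild type, and moved by no more than 1.5 times in the other comparisons. This alternative called 802 genes in G34W, 1140 in G34R and 1003 in K27R against H3.3 wild type. In the interactions it called 1798 with K27R and 118 with histone type. With those libraries counted separately and no block the numbers were higher, at 956, 1313, 1124, 1973 and 175 in the same order. The main fit gave 150, 344, 349, 1007 and 25. Over the other settings that keep all libraries, the number of genes called ran from 0 to 956 in G34W, 0 to 7687 in G34R and 0 to 7019 in K27R against H3.3 wild type, 0 to 20 for G34W within H3.1 (0), 621 to 6306 in H3.1 against H3.3 wild type (4229), 347 to 3221 in G34W K27R against G34W (2742), 132 to 4395 in G34W K36R against G34W (3882), 0 to 9664 in G34W K27R against K27R (3320), 3 to 1973 in the interaction with K27R and 0 to 192 in that with histone type. Without 1 library the ranges were 50 to 1525, 75 to 989, 101 to 883, 0 to 2473, 3501 to 5408, 1294 to 3512, 1648 to 4892, 1436 to 4427, 445 to 2085 and 3 to 907 in the same order. The standard deviation of the log2 replicate difference was 0.233 to 0.285 in the H3.3 groups other than G34W, 0.951 in G34W and 0.605 and 0.788 in H3.1. The depth limits Peg3, which had 0 to 15 reads. Nnat has no value with a minimum mean of 50, since it was below that mean.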
